A study of Mus musculus with 22 samples.

Results

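Rab30 and 7 other Rab GTPases of the Golgi apparatus (Rab1b, Rab2a, Rab18, Rab43, Rab6a, Rab33b and Rab8a) were followed across control, STAT and PAT ileum. The 8 genes were matched by symbol and have 22 probe sets on the array, among 18193 measured genes. For a gene with several probe sets, the one with the highest mean over the 22 arrays led, and the others are given beside it for PAT against control. Rab30 was chosen for its large rise with PAT in these same arrays, so its values with PAT are a description with no test. The other 7 genes were chosen by name as Rabs placed at the Golgi, with earlier results of these data known.

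Each array held RNA of terminal ileum, the last stretch of the small intestine, from NOD mice, which are inbred and prone to autoimmune diabetes. The 6 groups were 3 control females, 5 control males, 3 STAT females, 3 STAT males, 3 PAT females and 5 PAT males. STAT mice received antibiotic at a sub-therapeutic level and PAT mice received therapeutic doses in pulses. The drugs, their doses and the ages of the mice are not stated in the sources used here. The labels do not tie the samples to separate animals, so the p-values measure the spread between these samples, which may be technical.

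Rab GTPases are small switch proteins, each found on a characteristic set of membranes, that when bound to GTP recruit the tethers and motors that move vesicles between compartments. An exchange factor (GEF) turns a Rab on, and a GTPase-activating protein (GAP) turns it off. In the intestinal epithelium the Golgi apparatus packages mucins, digestive enzymes and lipoproteins, and Rabs divide its traffic into ER-to-Golgi, within-Golgi and Golgi-to-surface steps. Rab30 is a Golgi-resident Rab needed for the normal structure of the organelle.

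The values are log2 RMA levels of probe sets, on which a difference of 1 is a 2-fold change. STAT males 2 and 3 stood apart from the rest, with 3-prime minus 5-prime differences of beta-actin (a sign of RNA quality) of 0.59 and 0.60, while the other 20 arrays reached at most 0.42. The same difference for Gapdh was -0.12 ± 0.06 (SD, n = 8) with PAT, -0.12 ± 0.07 (SD, n = 6) with STAT and -0.20 ± 0.06 (SD, n = 8) in controls. Markers of ileal epithelium were present, with summed levels of the distal ileum list (Fabp6 and 5 others) of 14.9 to 15.6 and of the goblet cell list of 16.5 to 16.8 over all arrays. Markers under a mean of 6 were Lct, Nupr1l, Tie1, Lep, 4 of 5 tuft cell markers, 4 of 5 B cell markers and 2 of 5 T cell markers.

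Sequence upstream of the gene start is shown for 3 of the 7 tested members, because their levels changed with PAT and the promoter table holds them. Each line is the 250 bases before a RefSeq start on GRCm38.p6, 5′ to 3′ on the gene's strand. The Rab6a window is chr7:100607336-100607585 (+ strand), the Rab33b window chr3:51483716-51483965 (+ strand), and the Rab43 window chr6:87812165-87812414 (- strand), 1 of 4 windows of that gene. Capitals mark the letters TGACGT (core of the cyclic AMP response element) and CCAAT, or CCAAT read on the other strand.
Rab6a: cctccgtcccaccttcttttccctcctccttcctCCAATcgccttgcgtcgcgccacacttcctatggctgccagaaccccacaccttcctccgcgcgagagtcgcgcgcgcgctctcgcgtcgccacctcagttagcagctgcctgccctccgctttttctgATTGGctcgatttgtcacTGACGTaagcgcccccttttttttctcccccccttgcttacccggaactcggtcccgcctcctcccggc
Rab33b: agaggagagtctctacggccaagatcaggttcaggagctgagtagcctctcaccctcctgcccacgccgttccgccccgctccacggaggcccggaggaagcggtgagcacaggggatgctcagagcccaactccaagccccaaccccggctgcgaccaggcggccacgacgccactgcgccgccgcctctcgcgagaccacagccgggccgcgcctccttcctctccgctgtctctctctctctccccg
Rab43: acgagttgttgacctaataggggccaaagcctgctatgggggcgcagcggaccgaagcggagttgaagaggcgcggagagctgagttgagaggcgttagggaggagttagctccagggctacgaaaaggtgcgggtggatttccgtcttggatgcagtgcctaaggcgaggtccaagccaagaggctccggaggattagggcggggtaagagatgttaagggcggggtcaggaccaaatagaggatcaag

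The table held 8 windows of 5 members (Rab6a, Rab33b, Rab43, Rab1b and Rab8a). A set of 5 motifs were searched on both strands in the 250 bases, and the share of all 32851 windows that hold each is given beside it. TGACGT was found in 1 of the 8 windows, that of Rab6a, 69 bases before the start, and 6.47% of all windows hold it. CCAAT was in the windows of Rab6a (216 and 87 bases before the start), Rab8a (90 and 58 bases) and Rab1b (215 bases), and 33.8% of all windows hold it. The GC box GGGCGG was in windows of 3 of the 5 genes, Rab33b, Rab1b and Rab43, and 32.7% of all windows hold it. In Rab43 it was in 3 of 4 windows, of which 2 overlap and hold the same sites. The Golgi stress element ACGTGGC, which can overlap the E box CACGTG by 5 letters, was in 0 of the 8 windows, as was the E box itself. They are held by 2.02% and 6.02% of all windows. A match is only a run of letters and no match concerns only these windows.

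Rab30 stood at about the same level in control and STAT ileum and far higher in every PAT array. Its brighter probe set read 8.03, 8.25 and 8.25 in control females and 8.25, 7.60, 8.69, 7.38 and 8.16 in control males. PAT females read 11.72, 11.14 and 12.86, and PAT males read 13.14, 13.15, 12.39, 11.65 and 11.72. The lowest PAT array (11.14) thus lay above the highest control array (8.69), and the groups did not overlap in either sex. PAT minus control, averaged over the sexes, was 4.06 ± 0.27 on the log2 scale (SE), which is 16.7-fold. It was 3.73 ± 0.43 in females and 4.39 ± 0.34 in males. These are the values that chose Rab30. Of all genes, 0.544% lay higher in every PAT array than in every control array, and nothing is read from that share here because the choice used this contrast.

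Rab30 also varied widely within the PAT arrays. Group SDs were 0.87 in PAT females (n = 3) and 0.73 in PAT males (n = 5), against 0.12 in control females (n = 3) and 0.53 in control males (n = 5). PAT female 3 and PAT males 1, 2 and 3 read 12.39 or more, and the other 4 PAT arrays read 11.72 or less. The dimmer probe set put the same 4 arrays on top. It read 7.50 in PAT female 3 and 8.21, 7.35 and 7.45 in PAT males 1, 2 and 3. In the other 4 PAT arrays it read 6.25, 5.91, 6.26 and 5.77. Controls of that probe set lay between 4.98 and 5.84, so PAT male 5 overlapped them. Its PAT minus control difference was 1.49 ± 0.27 (SE). RMA pulls dim values together, and the smaller difference of the dim probe set was not tested against that of the bright one. The correlation of both probe sets over the 22 arrays was r = 0.881, a description that rests largely on the gap between PAT and the rest. The 4 PAT arrays with the highest Rab30 had beta-actin 3-prime minus 5-prime differences of 0.29 to 0.31. The other 4 PAT arrays had 0.38 to 0.42. The part of RNA quality in this split was not tested.

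**Figure D1:**
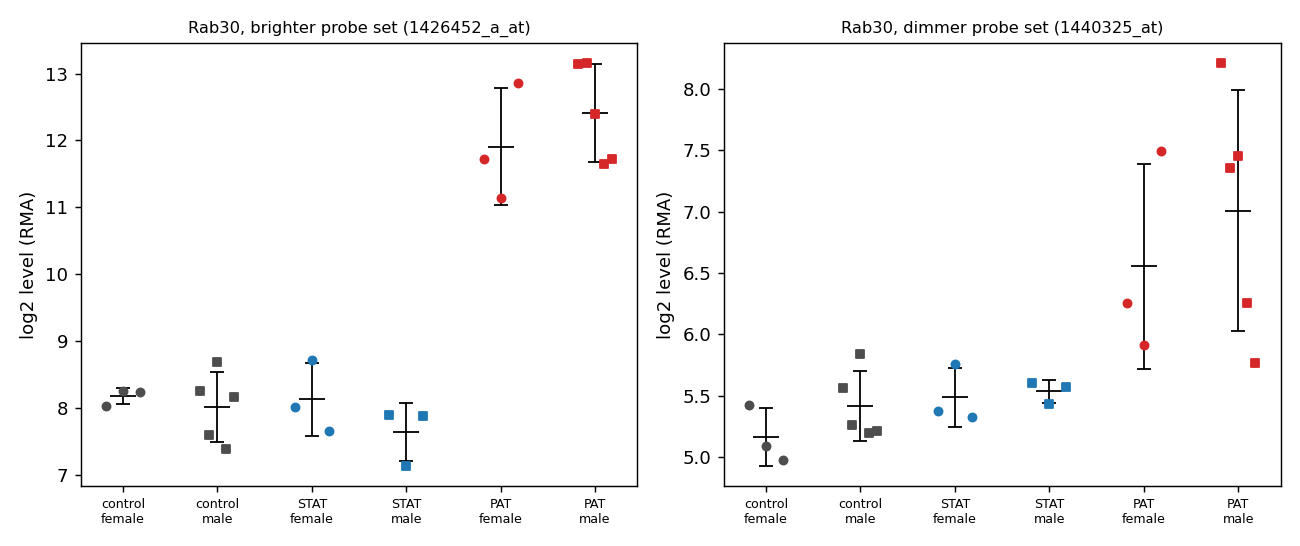
Log2 RMA level of Rab30 on its brighter (left) and dimmer (right) probe set in the 6 groups. Points are arrays and bars are group means with SD. PAT arrays of the brighter probe set lie from 11.14 to 13.15, and those of the dimmer one from 5.77 to 8.21, where 1 array falls within the control range.

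STAT left no detectable change in Rab30. STAT females read 8.01, 8.72 and 7.65, and STAT males 7.90, 7.14 and 7.88. These values overlapped the controls in both sexes. STAT minus control was -0.22 ± 0.29 (SE; limma adjusted p = 0.798), with a 95% interval from -0.82 to 0.39. The dimmer probe set gave 0.22 ± 0.29 (limma adjusted p = 0.822 over all probe sets), so the sign differed between the probe sets. PAT minus STAT was 4.28 ± 0.29 on the brighter probe set, given as a description because the PAT arrays chose the gene.

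Rab30 was also set side by side in the sexes. Control females minus control males was 0.16 ± 0.39 (limma adjusted p = 0.92). The PAT difference in females minus that in males was -0.66 ± 0.55 (SE), given as a description because it uses the PAT values that chose the gene. For STAT the same quantity was 0.33 ± 0.58 (limma adjusted p = 0.991).

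In PAT against control ileum, 4 of the 7 other Golgi Rabs passed the limma test at an adjusted p under 0.05, while 11% of all genes did. Leaving out any 1 control or PAT array gave 2 to 3 of 7, and other settings gave from 0 to 4. Rab6a rose, and Rab33b, Rab2a and Rab43 fell. Higher calls made up 4.61% of all genes and lower calls 6.38%. The changes were small, from -0.27 to 0.16 on the log2 scale, and the median over the 7 was -0.07, while the median over all genes was -0.0048. By absolute size the 4 called genes ranked between the 72.3 and 87.6 percentiles of all genes. For each of the 4 genes the PAT arrays overlapped the controls when both sexes were pooled, whereas 1.7% of all genes did not overlap.

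**Figure D2:**
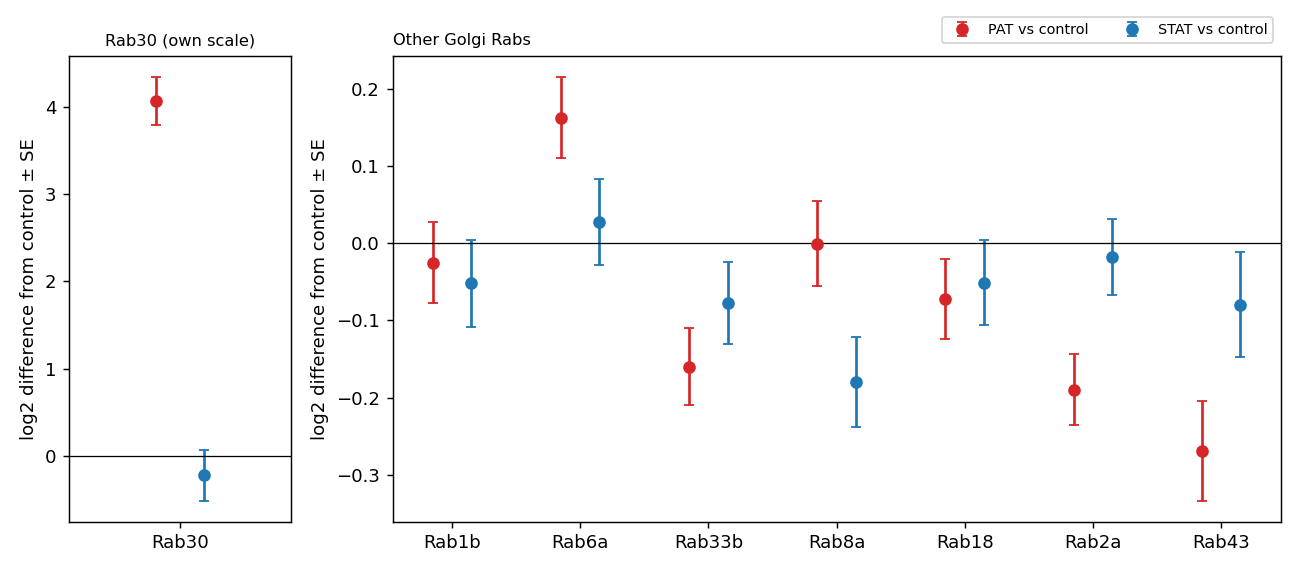
Log2 difference from control, averaged over the sexes, for PAT and STAT; points are limma estimates and bars are SE. Rab30 has its own scale at the left, where PAT stands at 4.06, and the other 7 genes lie between -0.27 and 0.16 for PAT.

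Among the Rabs of ER-to-Golgi and Golgi-to-ER traffic, Rab2a, which acts in the tethering of vesicles that return to the ER and of Golgi membranes, fell. It read 12.04, 11.88 and 12.07 in control females and 12.10, 11.96, 12.08, 12.08 and 12.07 in control males. PAT females read 11.81, 11.84 and 11.86 and PAT males 11.83, 11.85, 11.93, 11.79 and 11.80. Within each sex every PAT array lay below every control array, and only the order across sexes overlapped. PAT minus control was -0.19 ± 0.05 (SE; limma adjusted p = 0.0105). The call was lost with the mean of its probe sets (-0.17, limma adjusted p = 0.0551), with only the arrays of lower title numbers (-0.18, limma adjusted p = 0.0615) and with the Gapdh covariate described with RNA quality. The difference was -0.22 ± 0.06 in males (limma adjusted p = 0.0204) and -0.16 ± 0.07 in females (limma adjusted p = 0.199). Of all genes, 9.02% were called in males and 3.35% in females, and 5.29% and 13.2% lay lower without overlap. Rab2a has 6 further probe sets, each with a negative difference (-0.24 to -0.06). Of these, 1 whose name ends in s_at fell by 0.20 (limma adjusted p = 0.032 over all probe sets) and 1 ending in x_at by 0.24 (limma adjusted p = 0.0343), and the other 4 did not pass. These suffixes mark probe sets that the array maker says can match other transcripts. The x_at probe set was dim, with a mean level of 4.14. Those that did not pass include the second brightest, which averaged 11.59 in the controls and 11.50 with PAT. It correlated with the leading probe set at r = 0.351.

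Rab43, a Rab of ER-to-Golgi transport, fell most. Control females read 8.98, 8.80 and 9.02 and control males 8.80, 8.80, 8.77, 8.75 and 8.82. PAT females read 8.50, 8.80 and 8.58 and PAT males 8.66, 8.46, 8.75, 8.52 and 8.41. PAT lay below control without overlap in each sex, by a narrow margin for PAT female 2 and PAT male 3. In females 13.2% of all genes lay lower without overlap, and in males 5.29%. PAT minus control was -0.27 ± 0.06 (SE; limma adjusted p = 0.0103). Neither sex alone passed, at -0.31 ± 0.10 in females (limma adjusted p = 0.0894) and -0.23 ± 0.08 in males (limma adjusted p = 0.0722). The other probe sets of Rab43 did not pass. They gave 0.08 ± 0.08 (limma adjusted p = 0.691) and -0.09 ± 0.08 (limma adjusted p = 0.607), and correlated with the leading one at r = -0.205 and 0.199 over the 22 arrays. With the mean of the 3 probe sets the difference was -0.094 (limma adjusted p = 0.155).

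Rab1b, which starts ER-to-Golgi transport, and Rab18, which acts at the ER and on lipid droplets, did not pass. Rab1b ranged from 9.05 to 9.34 (median 9.17) in the 8 controls and from 8.98 to 9.27 (median 9.13) in the 8 PAT arrays. Its PAT minus control difference was -0.03 ± 0.05 (SE; limma adjusted p = 0.842; 95% interval -0.13 to 0.08). Rab18 ranged from 11.19 to 11.34 (median 11.23) in controls and from 11.07 to 11.28 (median 11.19) with PAT. Its difference was -0.07 ± 0.05 (limma adjusted p = 0.454; 95% interval -0.18 to 0.04), and its second probe set gave -0.23 ± 0.08 (limma adjusted p = 0.115). The ranges of both genes overlapped widely between the groups.

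Of the Rabs that act within the Golgi stack, Rab6a, which drives intra-Golgi and Golgi-to-ER retrograde traffic, was the only tested member that rose. Control females read 11.21, 11.17 and 11.19 and control males 11.32, 11.18, 11.24, 11.27 and 11.27. PAT females read 11.23, 11.28 and 11.45 and PAT males 11.49, 11.52, 11.41, 11.28 and 11.53. Every PAT female lay above every control female, as for 14.7% of all genes, and among males PAT male 4 overlapped the controls. PAT minus control was 0.16 ± 0.05 (SE; limma adjusted p = 0.0491). Its other 2 probe sets also rose, by 0.23 ± 0.05 (limma adjusted p = 0.013 over all probe sets) and 0.30 ± 0.09 (a probe set ending in x_at; limma adjusted p = 0.0406). Rab6a was at the edge of the threshold, and leaving out any 1 of 13 of the 16 control and PAT arrays took its adjusted p above it (up to 0.139).

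Rab33b, a within-Golgi Rab that also binds the autophagy protein Atg16l1, fell. Control females read 9.71, 9.60 and 9.62 and control males 9.78, 9.64, 9.78, 9.71 and 9.71. PAT females read 9.33, 9.44 and 9.59 and PAT males 9.70, 9.65, 9.59, 9.55 and 9.49. The female groups did not overlap, as for 13.2% of all genes in that direction, and the male groups did. PAT minus control was -0.16 ± 0.05 (SE; limma adjusted p = 0.0454). Leaving out any 1 of 12 of the 16 arrays took the adjusted p above the threshold (up to 0.15). Within the PAT arrays, the 4 with the highest Rab30 read 9.59 to 9.70 for Rab33b and the other 4 read 9.33 to 9.55. Those 4 highest were PAT female 3 and PAT males 1, 2 and 3, with beta-actin end differences of 0.29 to 0.31. The other 4 had 0.38 to 0.42. The parts of RNA quality and of sex in this split were not tested.

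Rab8a, which carries cargo from the Golgi to the plasma membrane and is needed for the normal apical surface of enterocytes, showed no detectable difference between PAT and control. It ranged from 10.14 to 10.42 (median 10.29) in the 8 controls and from 10.21 to 10.40 (median 10.27) in the 8 PAT arrays. The difference was -0.00052 ± 0.055 (SE; limma adjusted p = 0.996), with a 95% interval from -0.12 to 0.11. Its dimmer probe sets gave -0.0004 ± 0.091 (limma adjusted p = 0.999 over all probe sets) and -0.16 ± 0.07 (limma adjusted p = 0.216).

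**Figure D3:**
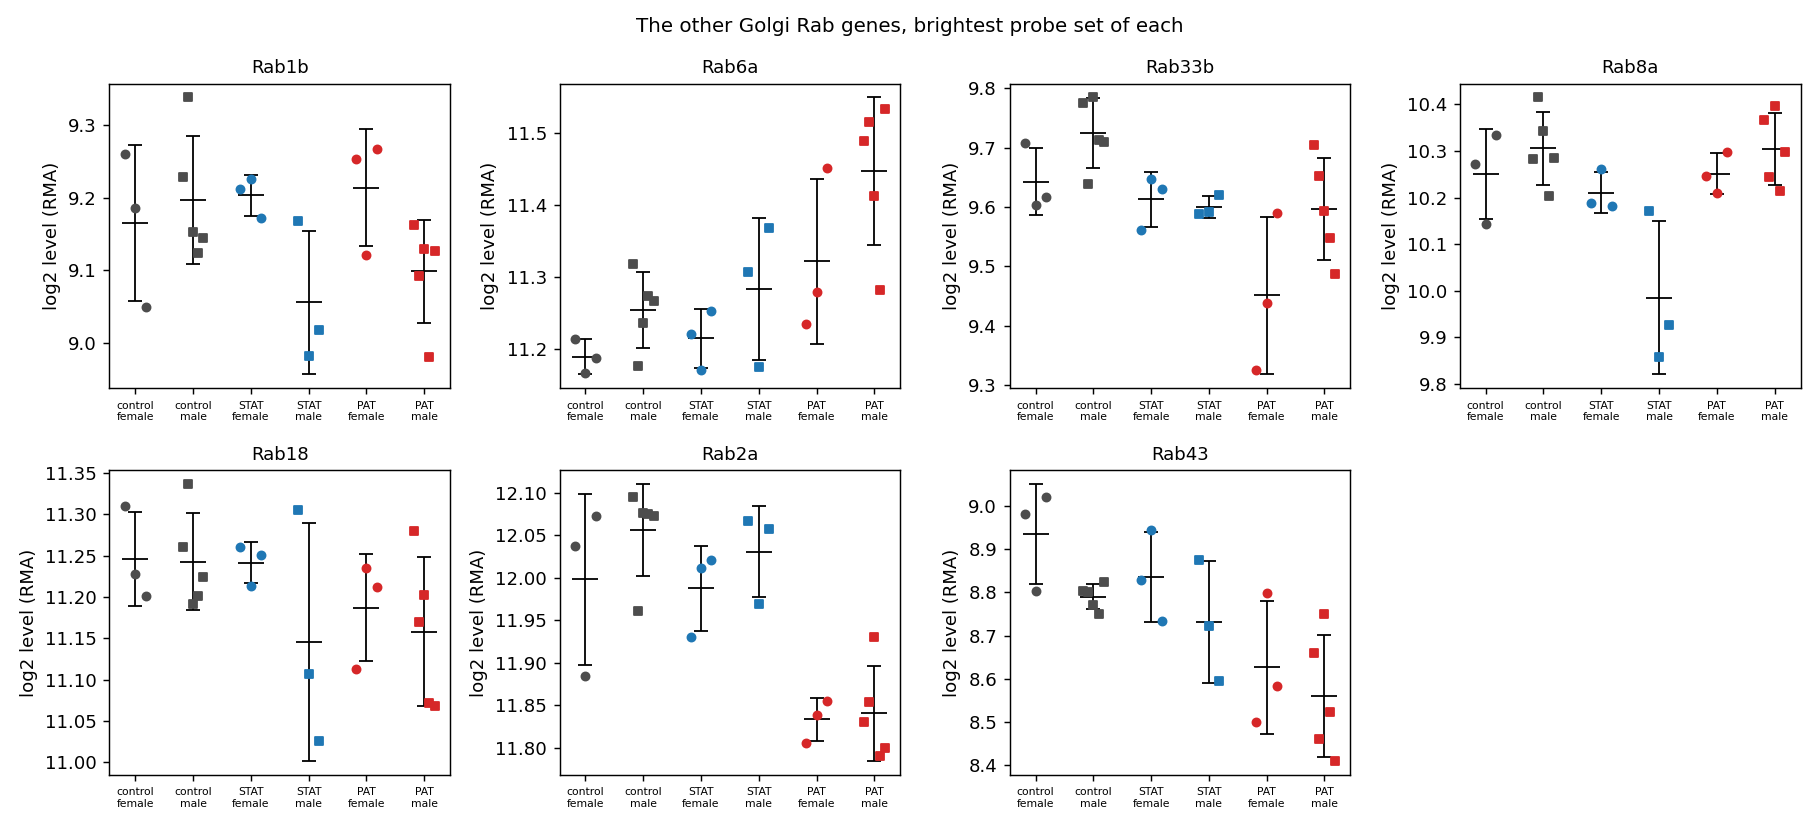
Log2 RMA levels of the 7 other Golgi Rab genes, leading probe set, in the 6 groups. Points are arrays and bars are group means with SD, and each panel has its own scale. Rab2a with PAT lies between 11.79 and 11.93, and the low Rab8a arrays are STAT males 2 and 3 (9.86 and 9.93).

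The 4 calls in PAT against control were also fitted with measures of RNA quality. With the Gapdh 3-prime minus 5-prime difference as a covariate, 0 of the 7 passed and 756 of all genes did. Rab6a then stood at 0.18 ± 0.06 (limma adjusted p = 0.129), Rab33b at -0.13 ± 0.06 (limma adjusted p = 0.305), Rab2a at -0.18 ± 0.06 (limma adjusted p = 0.083) and Rab43 at -0.20 ± 0.07 (limma adjusted p = 0.162). Rab30 stood at 4.32 ± 0.32. With the actin difference as the covariate instead, a setting chosen after seeing the data, 3 of the 7 passed, and Rab33b did not (-0.15 ± 0.05; limma adjusted p = 0.0578). The number of all genes called with the actin covariate is not given here, so the 3 of 7 has no share beside it. The part of RNA quality in these differences was not tested further. Markers that were higher with PAT were Apoa4 (1.73), Fabp6 (0.21), Sdc1 (0.32), Xbp1 (0.17), Kdr (0.42) and Plvap (0.49), and Ascl2 was lower (-0.58). They come from lists of enterocytes (1 of 10 and 1 of 6 called), plasma cells (2 of 6), endothelium (2 of 6) and crypt stem cells (1 of 5). Of 8 goblet cell markers 0 were called, and of all genes 11% were. Median differences of the whole lists were -0.053 and 0.105 (enterocytes), 0.053 (plasma cells), 0.313 (endothelium) and -0.04 (crypt stem cells). The summed B cell level reached 10.2 in 1 PAT array and 7.94 in controls. The part of cell composition was not tested, and in whole tissue fewer cells of a type and less RNA per cell cannot be told apart.

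With STAT against control, 0 of the 7 other members passed, as did 0% of all 18193 genes in limma, where 2391 genes (13.1%) had an unadjusted p under 0.05. With limma's array weights 2288 genes passed, and without STAT male 1, which had the lowest weight (0.316), 1053 did. Differences of the 7 ranged from -0.18 to 0.03. The largest was that of Rab8a, at -0.18 ± 0.06 (SE; limma adjusted p = 0.257), and it lay in males. STAT males read 10.17, 9.86 and 9.93, and control males 10.28, 10.42, 10.34, 10.20 and 10.29. The male groups did not overlap, as for 3.64% of all genes in that direction, but the difference of -0.32 ± 0.08 did not pass (limma adjusted p = 0.108). Rab8a passed with array weights (-0.37 in males, limma adjusted p = 0.000383; -0.20 over both sexes, limma adjusted p = 0.0132) and without STAT male 1 (-0.41 in males, limma adjusted p = 0.00363). STAT male 3 had the highest weight of all arrays (2.82), and STAT male 2 had 1.68. Leaving out STAT male 1 leaves only STAT males 2 and 3 in that group, so both settings lean on these arrays. The counts of 2288 and 1053 genes are over both sexes, and no count for males is given here. In STAT females, at 10.19, 10.26 and 10.18, the difference was -0.04 ± 0.09. The difference between the sexes did not pass (0.28 ± 0.12; limma adjusted p = 0.991). The low Rab8a arrays were STAT males 2 and 3, those with the largest actin end difference. Without both, only STAT male 1 is left in that group, and the male difference was -0.14. The other probe sets of Rab8a differed by -0.08 and -0.11 over both sexes and did not pass.

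With PAT against STAT, which shares the PAT arrays with the comparison above, 1 of the 7 passed where 5.88% of all genes did. Rab2a read 11.93, 12.01 and 12.02 in STAT females and 12.07, 11.97 and 12.06 in STAT males. Every PAT array lay below every STAT array, as for 0.803% of genes in that direction, although the nearest values both round to 11.93. PAT minus STAT for Rab2a was -0.17 ± 0.05 (SE; limma adjusted p = 0.0408). This call was lost without any 1 of 12 of the 14 PAT and STAT arrays (adjusted p up to 0.0965). Rab43 differed by -0.19 ± 0.07 (limma adjusted p = 0.11), Rab6a by 0.14 ± 0.06 (limma adjusted p = 0.162), Rab33b by -0.08 ± 0.05 (limma adjusted p = 0.414) and Rab8a by 0.18 ± 0.06 (limma adjusted p = 0.074). In males Rab8a passed, where 8.71% of all genes did, at 0.32 ± 0.08 (limma adjusted p = 0.0177). It did not pass without STAT male 2 (0.26, adjusted p = 0.145) or without STAT male 3 (0.29, adjusted p = 0.111). Without both, only STAT male 1 is left in that group, and the difference was 0.13.

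No difference between females and males passed the test for any of the 8 members among controls, where 0.055% of all genes were called, or in the size of the STAT difference, where 0% were. The size of the PAT difference was tested for the 7 members other than Rab30, and 0 passed, where 0.0055% of all genes did. The nearest to the threshold for the PAT difference was Rab1b (0.15 ± 0.11; limma adjusted p = 0.447).

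Among all 59 numbered Rab genes measured, Rab30 had the largest PAT minus control difference, a rank that its choice for this rise fixed. The next was 0.32 ± 0.13 for Rab42, a dim gene with a mean level of 4.43 (limma adjusted p = 0.121), named here after its value was seen. Of the 51 numbered Rabs other than the 8 described here, 1 rose and 8 fell, and their median was -0.07. Of all genes, 4.61% were called higher and 6.38% lower in this comparison. The one that rose was Rab1a, the close relative of Rab1b, at 0.16 ± 0.05 (limma adjusted p = 0.0428). The 4 falls with the smallest p were Rab40c (-0.49 ± 0.07; limma adjusted p = 0.000169), Rab24, an autophagy-linked Rab (-0.53 ± 0.08; limma adjusted p = 0.000474), Rab19 (-0.63 ± 0.11; limma adjusted p = 0.000629) and Rab13, a Rab of epithelial junctions (-0.26 ± 0.06; limma adjusted p = 0.00895). PAT and control arrays of Rab40c and Rab13 did not overlap, as for 1.7% of all genes in either direction. With STAT against control, 0 of the 59 passed. In PAT against STAT, 1 of the 51 was higher and 4 were lower, where 5.88% of all genes were called. Rab23 (-0.27 ± 0.07, limma adjusted p = 0.027), Rab29 (-0.29 ± 0.08, limma adjusted p = 0.0274) and Rab40c (-0.28 ± 0.08, limma adjusted p = 0.0285) were lower. The others, Rab1a and Rab19, are given with the SNAREs.

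**Figure D4:**
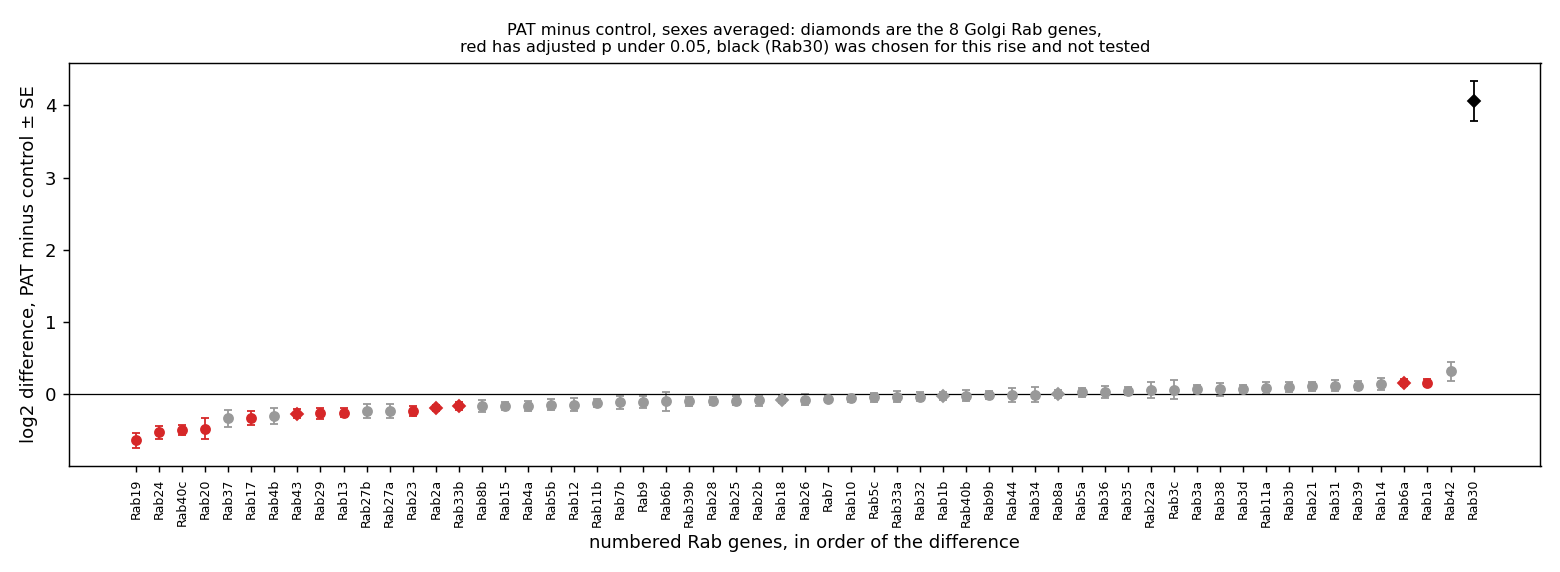
PAT minus control log2 difference (sexes averaged) of 59 numbered Rab genes in order of the difference; bars are SE. Diamonds are the Golgi members, red marks an adjusted p under 0.05, and Rab30, in black, stands at 4.06 while the rest lie between -0.63 and 0.32.

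By site of action, 13 other Rabs placed at the Golgi had 1 called higher (Rab1a) and 2 lower (Rab19 and Rab13) with PAT against control, where 4.61% of all genes were higher and 6.38% lower. Of 19 endosomal and recycling Rabs, 0 were higher and 3 lower, namely Rab24, Rab17, which acts in epithelial transcytosis (-0.32 ± 0.10), and Rab20 (-0.47 ± 0.15). None of 10 Rabs of regulated secretion and none of 7 genes for prenylation and extraction of Rabs passed. Of 19 GEFs and GAPs of Golgi Rabs, 0 were higher and 3 lower, with a median of -0.12. These were the TBC-domain gene Tbc1d22a (-0.33 ± 0.08), Rab3ip, an exchange factor for Rab8 (-0.20 ± 0.06), and Rabgap1, a GAP (-0.20 ± 0.06).

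Counts in the lists of Golgi structural and coat genes are to be read against the 11% of all genes called in PAT against control. Of 17 golgins and stacking proteins, Gorasp1, a Golgi stacking protein, rose (0.30 ± 0.06; limma adjusted p = 0.00377) and Cux1, whose locus also encodes a golgin, fell (-0.17 ± 0.05). In the COPI list 1 of 14 rose, the small GTPase Arf4 (0.23 ± 0.05; limma adjusted p = 0.00562). In the COPII list, whose coat carries cargo out of the ER, 2 of 14 rose and 0 fell, with a median of 0.06. They were the cargo adaptor Sec24d (0.35 ± 0.08) and Preb, the exchange factor for the GTPase that starts the coat (0.24 ± 0.06). PAT and control arrays of Preb did not overlap, as for 0.544% of all genes in that direction. Of 22 TRAPP and COG tether genes 1 fell, Trappc2 (-0.21 ± 0.06).

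Among 12 SNAREs of the Golgi, the proteins that fuse vesicles with their target, 1 rose and 1 fell in PAT against control. Of all genes, 4.61% were called higher and 6.38% lower. Stx6, a SNARE of the trans-Golgi network and endosomes, fell by 1.14 ± 0.12 (SE; limma adjusted p = 4.79e-06). Its PAT and control arrays did not overlap, as for 1.7% of all genes in either direction. Sec22b, a SNARE of ER-to-Golgi vesicles, rose by 0.26 ± 0.07 (limma adjusted p = 0.0151). In PAT against STAT 5.88% of all genes were called. There the differences were -0.93 ± 0.12 for Stx6 (limma adjusted p = 0.000111) and 0.28 ± 0.07 for Sec22b (limma adjusted p = 0.0224). The COPII-associated gene Sec16b was also higher than with STAT (0.40 ± 0.10; limma adjusted p = 0.028), as was Rab1a (0.21 ± 0.05; limma adjusted p = 0.0238). Rab19 was lower (-0.38 ± 0.11; limma adjusted p = 0.047). With STAT against control none of the genes of these lists passed.

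The large difference at Rab30 was not seen in its measured neighbours on chromosome 7. Of the nearest 5 on each side in the RefSeq gene table, 0 of 10 passed the limma test in PAT or STAT against control or in PAT against STAT, where 11%, 0% and 5.88% of all genes did. The nearest on one side, 4632427E13Rik, differed by 0.29 ± 0.12 with PAT (limma adjusted p = 0.124). Beyond it, Pcf11, a factor that ends transcription, differed by 0.29 ± 0.19 (limma adjusted p = 0.386) and Ccdc90b by -0.18 ± 0.07 (limma adjusted p = 0.08). On the other side Ddias differed by 0.09 ± 0.12 (limma adjusted p = 0.71), Prcp by -0.09 ± 0.08 (limma adjusted p = 0.602) and Nars2, an asparaginyl-tRNA synthetase, by 0.19 ± 0.08 (limma adjusted p = 0.108). The remaining 4 (Ankrd42, 4930567K12Rik, Fam181b and Tenm4) lay between -0.03 and 0.09. Mean levels were under 6 for Ddias (5.87), Fam181b (4.77), 4930567K12Rik (4.07) and Ankrd42 (3.81). Tenm4 and Nars2 lay 3327 and 4106 kb from Rab30.

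**Figure D5:**
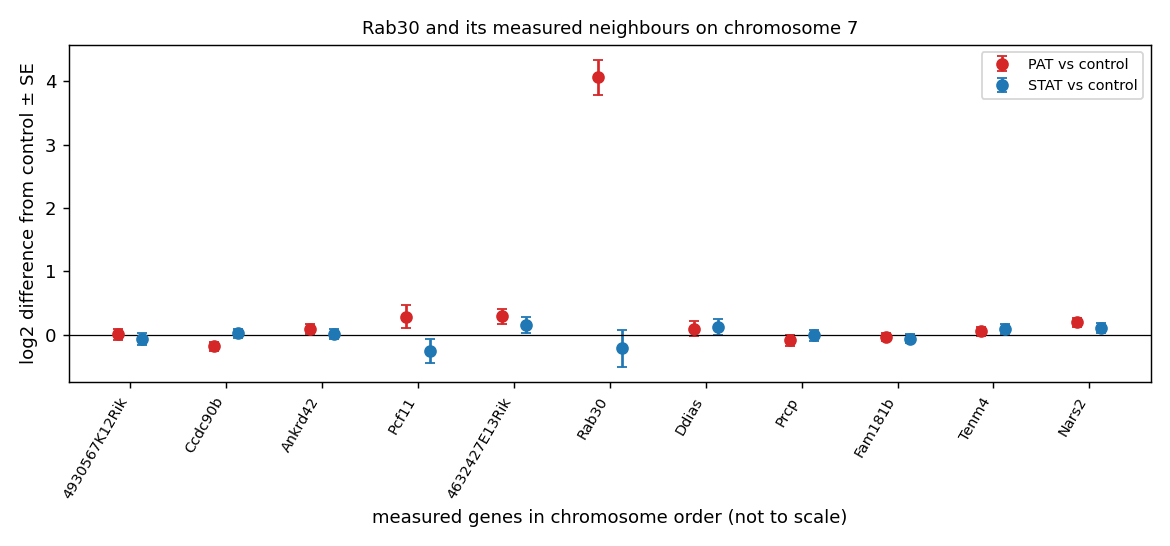
Log2 difference from control (sexes averaged) with SE for Rab30 and the 10 nearest measured genes, in chromosome order and not to scale, for PAT and STAT. Rab30 with PAT stands at 4.06, and its 10 neighbours lie between -0.18 and 0.29 with PAT.

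Genes whose levels followed that of Rab30 over the 22 arrays were ranked among the 11450 genes whose mean level reached 6. The highest Pearson r were those of Nat8f4 (0.965), Chka, choline kinase alpha (0.955), Dusp14, a dual-specificity phosphatase (0.952), 1700017B05Rik (0.943), Gcnt2, a glycosyltransferase (0.938) and Maff, a small Maf transcription factor (0.934). Their PAT minus control differences ran from 0.66 ± 0.08 for 1700017B05Rik to 2.15 ± 0.29 for Dusp14. These r values rest largely on the gap between PAT and the other arrays. With each group's mean taken away, the highest r were those of Chka (0.83), Lysmd3 (0.795), Dusp14 (0.795), Dipk2a (0.78), Med13 (0.779) and Nrip1 (0.778). Dusp14 had mean levels of 6.03 in controls, 5.63 with STAT and 8.23 with PAT, so it reached the limit of 6 over all arrays only through the PAT arrays. Both measures are descriptions over arrays that share treatment groups.

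Among the other Golgi Rabs, Rab33b followed Rab30 most closely once group means were taken away (r = 0.696 over 22 arrays), although its levels ran the other way over all arrays (r = -0.372). Rab6a had r = 0.485 for deviations and 0.74 for levels. Rab2a had 0.321 and -0.787, and Rab43 had 0.094 and -0.644. Rab2a and Rab43 were thus low in the PAT groups, where Rab30 was high, while within groups their deviations followed those of Rab30 weakly. The part of RNA quality in these r values was not tested.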

How the data were processed

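The deposited log2 expression values per probe set were made by the authors with RMA from the package affy, according to the submitters' processing notes. RMA removes background, puts arrays on 1 scale and combines the probes of a set, with no detection calls. Tool versions, labelling batches and scan dates are not stated in the sources used here. The table held 45101 probe sets, of which 64 were controls of the array maker, 34945 carried exactly 1 gene symbol in the platform annotation. The 932 with several symbols and the 9160 without any were left unnamed. The probe set with the highest mean stood for each of the 18193 genes. Levels of different probe sets were not set against each other.

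A model with 1 mean for each of the 6 groups was fitted to all 22 arrays with limma 3.58.1 in R 4.3.3 (16 residual and 4.88 prior degrees of freedom). All adjusted p-values are two-sided, from limma, and adjusted by Benjamini-Hochberg over all genes, or over all probe sets where that is stated. Calls needed an adjusted p below 0.05. Errors beside differences are SE and those beside levels SD. The number of arrays limits the precision.

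The members and all gene lists were chosen with earlier results of these data known. Named were every member and the called genes of each list (at most 4 per comparison averaged over the sexes, by smallest p). Also named were the 5 nearest measured neighbours on each side of Rab30, and the 6 genes with the highest r to Rab30 by each measure. Promoter windows came from RefSeq (GRCm38.p6) and matched 5 of 8 members. Rab30, Rab2a and Rab18 have no entry in that table. Alternatives changed the probe set choice, filter, scaling, arrays, weights and covariates.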

Additional observations from a re-analysis of the deposited data

Results flagged for a closer look

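In Rab2a, control male 2 read 11.96 while the other 4 control males read 12.07 to 12.1, and the gap was 0.827 of the group's range, above the 95% critical value of Dixon's test. This was 1 of 16 groups of member genes with 4 or more arrays that were examined, and chance marks about 1 in 20. Without that array the male difference of Rab2a was -0.24 (limma adjusted p = 0.0213).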

How the results depend on the processing

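The labels number no replicates, and no number is shared between groups. No paired analysis was possible because the groups share no replicate numbers. The setting with only the arrays of lower title numbers (16 of 22), and the actin covariate, were chosen after seeing the data. Where a value moved, the cause was not tested, apart from fewer arrays or fewer tests where a setting has them. The difference of Rab30 between PAT and either other group kept its direction in each setting that was run. With the mean of its probe sets it was 2.775 (PAT minus control) and 2.773 (PAT minus STAT), and 2.56, 2.99, 2.42 and 3.12 within the sexes. The limit is the number of arrays and, for dim probe sets, signal near background.

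In PAT against control (4 of 7 members, 1999 genes), 2 members passed with the mean of probe sets, each probe set by itself, arrays centred on medians, only the groups compared, or without STAT males 2 and 3. With lower title numbers it was 1 and with the Gapdh covariate 0. Genes called were 3287 for every probe set and 756 with Gapdh. Leaving out 1 array gave 2 to 3 members and 1353 to 2494 genes. In STAT against control (0 of 7, 0 genes), array weights gave 1 member and 2288 genes. The count of genes called was 1 with every probe set and 1 with only the groups compared. Leaving out 1 array gave 0 to 1 members and 0 to 1053 genes, the highest without STAT male 1. In PAT against STAT (1 of 7, 1069 genes), 2 passed with the filter at 6, repeated quantile normalization, array weights or the actin covariate. It was 0 with the mean of probe sets, every probe set, centring, only the groups compared, without STAT males 2 and 3 or with lower title numbers. Genes called were 1859 (every probe set), 516 (only the groups compared), 2631 (array weights), 503 (without STAT males 2 and 3) and 297 (lower title numbers). Leaving out 1 array gave 0 to 1 members and 633 (without STAT male 2) to 1676 genes (without STAT male 1). Where a setting has no gene count here, its member count has no share of all genes beside it and is only a description.

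Differences that changed sign had not passed the test, and none passed after the change. In PAT against control, Rab8a was 0.023 (quantile), 0.018 (weights), 0.058 (Gapdh) and 0.027 (actin), and with Gapdh Rab1b was 0.033 and Rab18 0.013. In females Rab8a was -0.021 (mean of probe sets) and -0.00044 (quantile) and Rab18 0.027 (Gapdh). In males Rab8a was 0.047 (quantile), 0.018 (weights), 0.056 (Gapdh) and 0.017 (actin). In STAT against control, Rab30 was 0.0024 (mean of probe sets), 0.019 (Gapdh) and 0.098 (actin). Rab1b was 0.00033 (Gapdh), 0.0043 (without STAT males 2 and 3) and 0.015 (actin), and Rab18 0.026, 0.029 and 0.040 under the same settings and 0.017 with lower title numbers. Rab2a was 0.00023 (without STAT males 2 and 3) and 0.0073 (actin), and Rab43 0.017 (lower title numbers) and 0.0026 (actin). For Rab30 in females it was 0.14 (mean of probe sets), 0.047 (Gapdh), 0.14 (title number as a term), 0.19 (lower title numbers) and 0.058 (actin), and in males 0.14 (actin). In PAT against STAT, Rab18 was 0.027 (weights), and Rab1b -0.0022 (title number as a term), -0.029 (without STAT males 2 and 3), -0.041 (lower title numbers) and -0.021 (actin). Control females minus males for Rab30 was -0.047 (mean of probe sets), -0.073 (title number as a term) and -0.0068 (lower title numbers).

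Leaving out 1 array moved PAT against control for Rab8a from -0.027 to 0.021 (females -0.052 to 0.043, males -0.027 to 0.025) and for Rab1b in females from -0.0096 to 0.096. It moved STAT against control for Rab2a from -0.046 to 0.00077, for Rab30 in females from -0.34 to 0.19 and for Rab8a in females from -0.093 to 0.0024. PAT against STAT for Rab18 ran from -0.051 to 0.019, and control females minus males for Rab30 from -0.0014 to 0.33.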
